A study of Mus musculus with 2 samples.

Results

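Retinoic acid synthesis and binding genes were followed as 9 mouse genes taken by symbol, Stra6, Rbp4, Aldh1a1, Aldh1a2, Aldh1a3, Crabp1, Crabp2, Rarb and Cyp26b1, out of the 32285 genes listed in the files. All 9 were found. They were read in single-cell RNA-seq of whole spinal cords from FVB mice at postnatal day 4, in 1 library labelled SMA (mSmn-/-, hSMN22tg/0) and 1 labelled Con (mSmn+/-, hSMN22tg/0). Mice of both groups carried the human SMN2 transgene, and the labels separate the groups by mouse Smn. Littermates were pooled into each library, their sexes were not stated, and few neurons came through the dissociation. Neither group had a replicate, and the values describe these libraries. No test between the groups was possible, and every interval given is a 95% interval for counting error only.

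Retinoic acid is made inside cells from circulating vitamin A. RBP4 carries retinol in the blood, STRA6 is a cell-surface receptor that takes retinol from RBP4, alcohol and retinol dehydrogenases oxidize retinol to retinaldehyde, and the ALDH1A enzymes oxidize retinaldehyde to retinoic acid. CRABP1 and CRABP2 bind retinoic acid in the cytoplasm, the nuclear receptors (RARs, with RXR partners) switch on target genes when retinoic acid binds them, and CYP26 enzymes break it down. In the nervous system the meninges are a known source of retinoic acid, and the pathway patterns the spinal cord during development.

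A barcode is the tag of 1 droplet, and a UMI (unique molecular identifier) marks 1 captured RNA molecule. There were 26921 barcodes with 85872075 UMIs for SMA and 25419 barcodes with 97894084 UMIs for Con. The libraries listed 8163 barcodes in common. Of Con barcodes with at least 5000 UMIs, 99.0% were also listed for SMA, whereas 2.78% of such SMA barcodes were listed for Con. SMA barcodes also listed for Con were therefore left out, and 6787 cells labelled SMA and 8916 labelled Con were kept. Smn1 was at a CPM (UMIs of a gene scaled to a common total) of 52.4 in SMA and of 51.2 in Con over kept cells outside the erythroid-like class, so its 3′ counts did not separate the genotypes. Xist was at 1.49 CPM in SMA and at 619 CPM in Con, and the Y-linked genes were at 167 and 74.3 CPM. The sex make-up of the pools therefore differed between the libraries, and its part in the differences below was not tested.

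Cells were divided into 14 classes named with "-like" from marker genes and 2 unnamed clusters, called by their leading genes Pdyn and Tnni2. The Pdyn cluster held 7 detected ependymal markers, but a monocyte marker was among its leading genes and it was left unnamed. The members were kept out of the clustering. Expression was summed over the cells of a class and given as CPM, and the 13 classes or clusters in which both libraries had at least 50 cells were compared. Fibroblast-like cells, in which most of the members were found, numbered 63 in SMA and 599 in Con, and all 8 fibroblast markers were detected in both of their clusters.

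The promoter of Rarb is shown first, since Rarb is the member known both as a receptor and as a target of retinoic acid. Promoter windows of 300 bases were present for 7 of the 9 members in the RefSeq table on GRCm38.p6, and each window covers 250 bases before to 50 bases after a transcription start. Windows were searched on both strands for the half-site AGGTCA, the consensus of nuclear receptors, and for 3 variants of it, namely AGTTCA, as well as GGGTCA, and lastly the variant GGTTCA. They were also searched for 2 half-sites in the same orientation with 1, 2 or 5 bases between them. Only the Rarb window, chr14:16575427-16575726 on the minus strand, held such a repeat. Its 2 half-sites lie 5 bases apart in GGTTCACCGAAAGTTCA, starting 53 bases before the start site. That spacing was found in 32 of 32851 promoter windows (0.0974%), whereas at least 1 half-site was found in 43.7% of them. Of the 12 windows of the members 4 held at least 1 half-site, namely that of Rarb and 1 window each of Aldh1a1, Rbp4 and Stra6. The windows of Aldh1a2 (chr9:71215539-71215838, plus strand) and Crabp1 (chr9:54764498-54764797, plus strand), whose levels differed most between the libraries in opposite directions, are shown for comparison and held no half-site. Capitals mark the half-sites.
Rarb: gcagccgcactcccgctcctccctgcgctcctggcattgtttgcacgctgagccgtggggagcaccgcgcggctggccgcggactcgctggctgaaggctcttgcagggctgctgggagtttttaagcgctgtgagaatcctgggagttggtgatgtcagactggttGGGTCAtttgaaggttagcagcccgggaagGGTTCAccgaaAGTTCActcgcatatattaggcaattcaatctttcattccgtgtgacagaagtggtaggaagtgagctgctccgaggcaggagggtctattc
Aldh1a2: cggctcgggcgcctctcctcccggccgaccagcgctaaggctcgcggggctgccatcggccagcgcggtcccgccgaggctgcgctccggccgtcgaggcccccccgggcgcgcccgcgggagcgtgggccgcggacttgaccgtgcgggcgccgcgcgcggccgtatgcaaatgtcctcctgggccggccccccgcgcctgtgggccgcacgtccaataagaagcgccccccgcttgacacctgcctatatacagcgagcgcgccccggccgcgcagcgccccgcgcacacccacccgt
Crabp1: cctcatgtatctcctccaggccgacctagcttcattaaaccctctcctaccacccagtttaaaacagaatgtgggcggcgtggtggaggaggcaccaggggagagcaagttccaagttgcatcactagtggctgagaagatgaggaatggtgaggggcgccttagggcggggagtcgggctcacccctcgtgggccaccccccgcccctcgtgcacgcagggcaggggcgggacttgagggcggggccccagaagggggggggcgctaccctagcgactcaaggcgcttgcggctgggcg
A match is a description of the letters and not evidence of binding. The counts come from the 3′ ends of transcripts and do not show which start site was used.

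**Figure D1:**
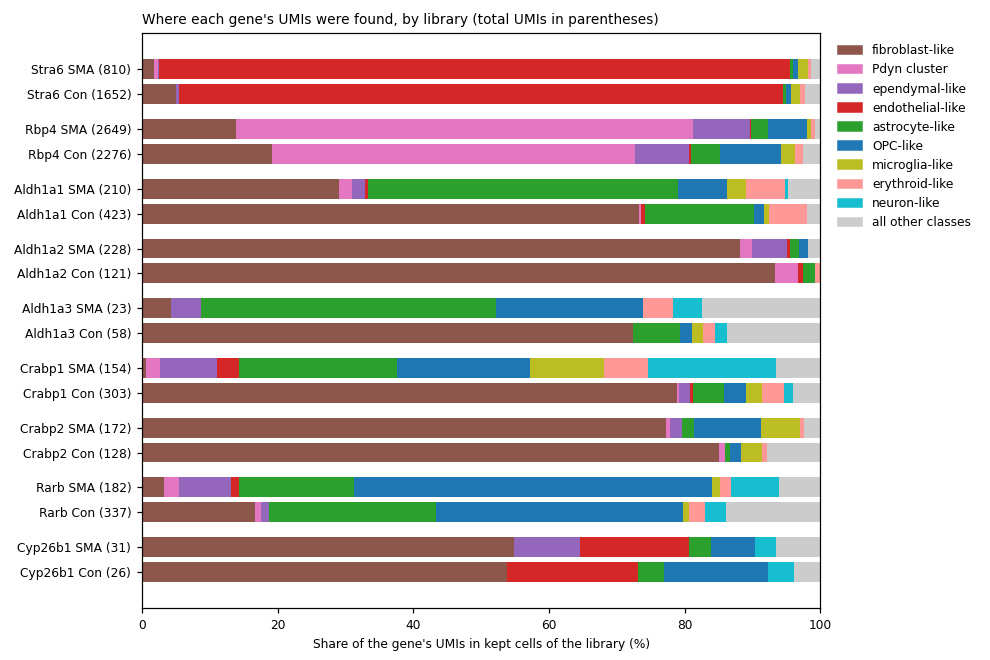
Share of each gene's UMIs (horizontal axis, %) found in each cell class of kept cells, with 1 bar per gene and library and the gene's total UMIs in parentheses. Stra6 lies almost wholly in endothelial-like cells, Rbp4 mostly in the Pdyn cluster, and Aldh1a2 and Crabp2 mostly in fibroblast-like cells in both libraries, whereas Crabp1 and Aldh1a3 lie mostly in fibroblast-like cells of the library labelled Con alone.

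The fibroblast-like class was the site of the highest level for most members. Among the 13 classes or clusters compared, the class of highest level was the same in both libraries for 7 of the 9 members. It was the endothelial-like class for Stra6, the Pdyn cluster for Rbp4, and the fibroblast-like class for Aldh1a1, Aldh1a2, Crabp2, Rarb and Cyp26b1. For Rarb in SMA the order is not settled. Its 10.3 CPM in fibroblast-like cells came from 6 UMIs, beside 9.09 CPM (8 UMIs) in Schwann-like and 8.51 CPM (96 UMIs) in OPC-like cells. For Crabp1 it was the ependymal-like class in SMA, at 5.18 CPM, and the fibroblast-like class in Con, at 85.8 CPM. For Aldh1a3 it was the Schwann-like class in SMA, on 3 UMIs, and the fibroblast-like class in Con, on 42 UMIs. Free RNA gives UMIs in cells that do not express a gene, so shares of cells with a UMI were also taken after thinning each cell to 1000 UMIs and set against microglia-like and erythroid-like cells. The thinned share was above both of these classes in both libraries for 7 pairs of a member and a class, namely Stra6 in endothelial-like cells, Rbp4 in the Pdyn cluster, ependymal-like and fibroblast-like cells, and Aldh1a1, Aldh1a2 and Crabp2 in fibroblast-like cells.

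**Figure D2:**
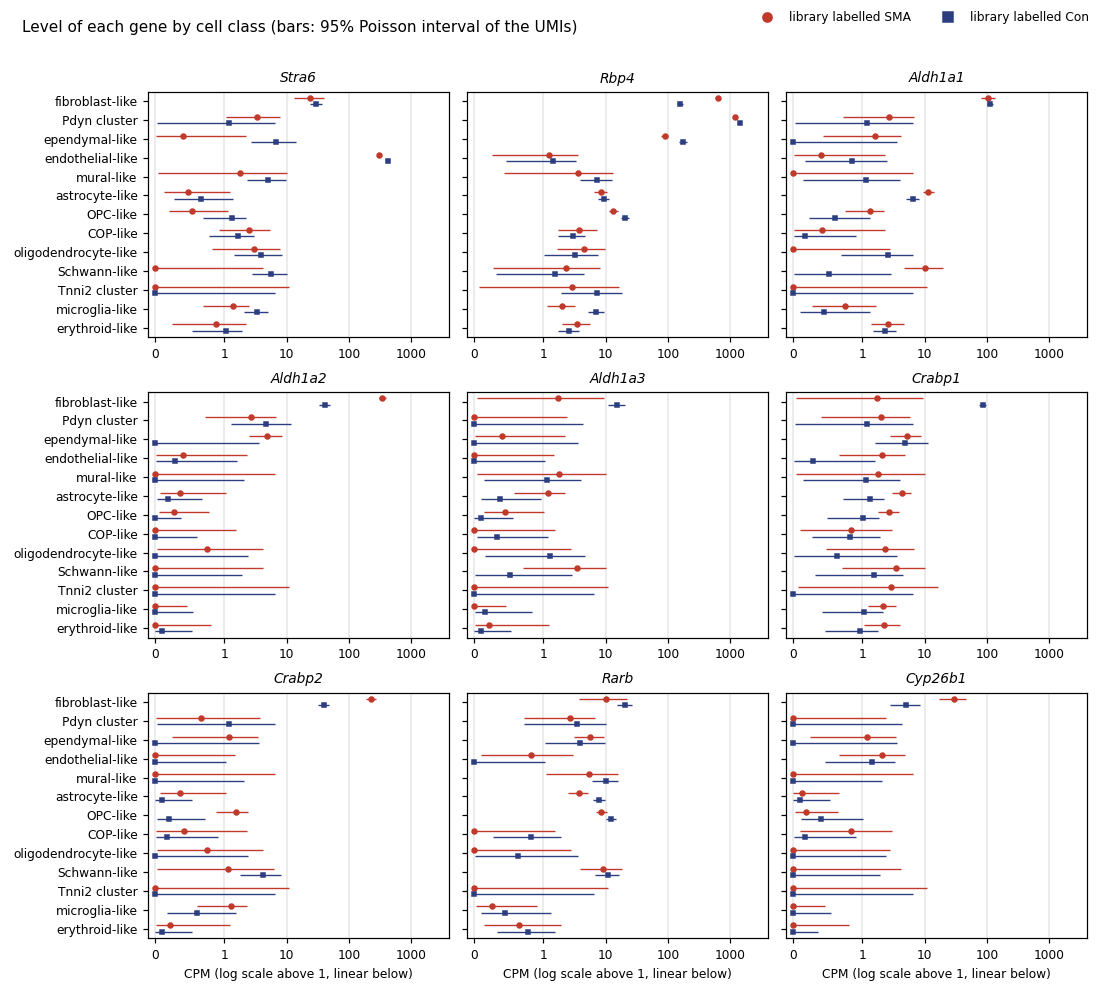
Level of each gene (horizontal axis, CPM, logarithmic above 1 and linear below) in 13 classes or clusters, in the library labelled SMA (circles) and the library labelled Con (squares), with 95% Poisson intervals. Stra6 stands out in endothelial-like cells at 307 and 415 CPM and Rbp4 in the Pdyn cluster at 1177 and 1417 CPM, while the ALDH1A enzymes, Crabp2 and Cyp26b1 are highest in fibroblast-like cells of 1 or both libraries.

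Stra6 (chr9:58063788-58153996, plus strand, GRCm38), the retinol receptor, was a gene of endothelial-like cells. It was at 307 CPM (754 UMIs, interval 285 to 330) in SMA and at 415 CPM (1472 UMIs, 394 to 437) in Con. These cells held 93.1% of its UMIs in SMA and 89.1% in Con. A UMI of Stra6 was found in 64.2% of 327 endothelial-like cells in SMA and in 66.0% of 435 in Con. At 1000 UMIs per cell the shares were 24.2% and 26.9%, against at most 0.299% in microglia-like and erythroid-like cells. Both endothelial-like clusters carried it, at 313 and 428 CPM in the larger and at 276 and 348 CPM in the smaller. The level was lower in SMA by 0.43 on the log2 scale (1.35-fold, log2 interval -0.56 to -0.31), which is outside counting error but under 2-fold. Where the SMA barcodes shared with Con were kept, the log2 ratio was -0.38.

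Stra6 was found at a second, lower level in fibroblast-like cells, at 24.0 CPM (14 UMIs) in SMA and 29.4 CPM (82 UMIs) in Con. Microglia-like cells had 1.38 CPM in SMA and 3.30 CPM in Con, a log2 ratio of -1.25 (-2.44 to -0.15), or -0.98 with each cell weighted equally. Those counts were few and concentrated, with 72.7% of the 22 UMIs of Con in 5 of 899 cells. The summed endothelial markers in microglia-like cells moved the same way, at 39.1 CPM in SMA and 83.6 CPM in Con, with all 8 detected, and their part in the difference was not tested.

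Rbp4 (chr19:38116629-38125281, minus strand, GRCm38), the plasma carrier of retinol, was highest in the Pdyn cluster. It was at 1177 CPM (1787 UMIs) in 238 cells labelled SMA and at 1417 CPM (1218 UMIs) in 134 cells labelled Con. A UMI of Rbp4 was found in 89.9% of these cells in SMA and in 95.5% in Con, and the 5 highest cells held only 7.61% and 10.3% of the UMIs. Rbp4 was therefore spread over nearly the whole cluster. The log2 ratio was -0.27 (-0.37 to -0.16).

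Ependymal-like cells, the ciliated lining of the central canal, held Rbp4 at 88.1 CPM (221 UMIs) in SMA and 175 CPM (182 UMIs) in Con. The log2 ratio was -0.99 (-1.28 to -0.70), at the edge of 2-fold. A single Con cell held 35 of the 182 UMIs, and the 5 highest Con cells held 36.8%. With each cell weighted equally the log2 ratio was -1.03, and over all settings it ran from -1.13 to -0.94. The part of the highest cells in the difference was not tested. A UMI was found in 29.9% of 384 cells in SMA and in 41.2% of 153 cells in Con, and at 1000 UMIs per cell in 8.36% (5.79 to 11.6) and 13.8% (8.76 to 20.3), intervals that overlap. With the shared barcodes kept, the log2 ratio was -0.25 in the Pdyn cluster and -0.97 in ependymal-like cells.

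Lower levels of Rbp4 were found in the glial classes. OPC-like cells (oligodendrocyte precursors) had 13.3 CPM in SMA and 20.3 CPM in Con (log2 ratio -0.61), and astrocyte-like cells had 8.36 and 9.40 CPM (log2 ratio -0.17, interval -0.63 to 0.28). Within OPC-like cells the level was highest in a cluster of 184 SMA and 167 Con cells, at 28.1 and 35.7 CPM. In microglia-like cells Rbp4 was at 2.01 CPM (16 UMIs) in SMA and 7.04 CPM (47 UMIs) in Con, a log2 ratio of -1.81 (-2.73 to -0.96). The direction was not stable, since with no upper limit on genes per cell the log2 ratio was 0.20. In this class 1.21% of genes were at least 2-fold lower in SMA. A cluster led by Spp1 and Ccl4 held 35 of the 47 Con UMIs in 6 of its 112 cells, with 14 of them in 1 cell. Among markers of the classes rich in Rbp4, those of ependymal cells were at 29.4 CPM in SMA and 29.1 CPM in Con in microglia-like cells, and those of fibroblasts at 13.1 and 46.7 CPM. Whether other cells gave these UMIs was not tested. In erythroid-like cells the log2 ratio was 0.42 for Rbp4 (16 and 27 UMIs) and 0.18 for Aldh1a1 (12 and 24 UMIs), beside a median of 0.23 over all genes of that class. With each cell weighted equally they were -0.61 and -0.85.

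Fibroblast-like cells carried the synthesis enzymes, and here the libraries differed most. Their background is high, since 13.9% of the 8221 genes compared in this class were at least 2-fold lower in SMA and 7.06% at least 2-fold higher. Median depth in the class was 8577 UMIs in SMA and 3473 UMIs in Con, and the median mitochondrial share was 6.77% and 2.59%. Marker sums also differed within the class. The 8 fibroblast markers summed to 9850 CPM in SMA and 26735 CPM in Con, with all detected in both. Mural markers summed to 197 CPM (8 of 9 detected) and 2124 CPM (9 of 9), and erythroid markers to 453 CPM (5 of 7) and 19761 CPM (7 of 7). Also lower in SMA were the markers of Schwann cells, at 6.85 CPM (3 of 7) against 160 CPM (7 of 7), of neurons, at 570 against 1344 CPM (6 of 9 in both), and of monocytes, at 92.4 CPM (2 of 6) against 365 CPM (4 of 6). Those of astrocytes were higher in SMA, at 1597 against 610 CPM (8 of 8 in both), as were those of COP cells (committed oligodendrocyte precursors), at 216 against 54.2 CPM (6 of 6 in both), and of ependymal cells, at 47.9 against 16.9 CPM (7 of 8 in both). The part of these cells in the differences below was not tested. All 9 members reached the 30 UMIs required in this class. Among them 4 were at least 2-fold higher in SMA, 2 at least 2-fold lower and 3 under 2-fold. The median log2 ratio of the members was -0.09, against -0.02 over all genes compared. Over all 13 classes 23 pairs of a member and a class were compared, of which 5 were at least 2-fold lower and 6 at least 2-fold higher, against 2.41% and 2.11% of 114551 gene and class pairs.

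**Figure D3:**
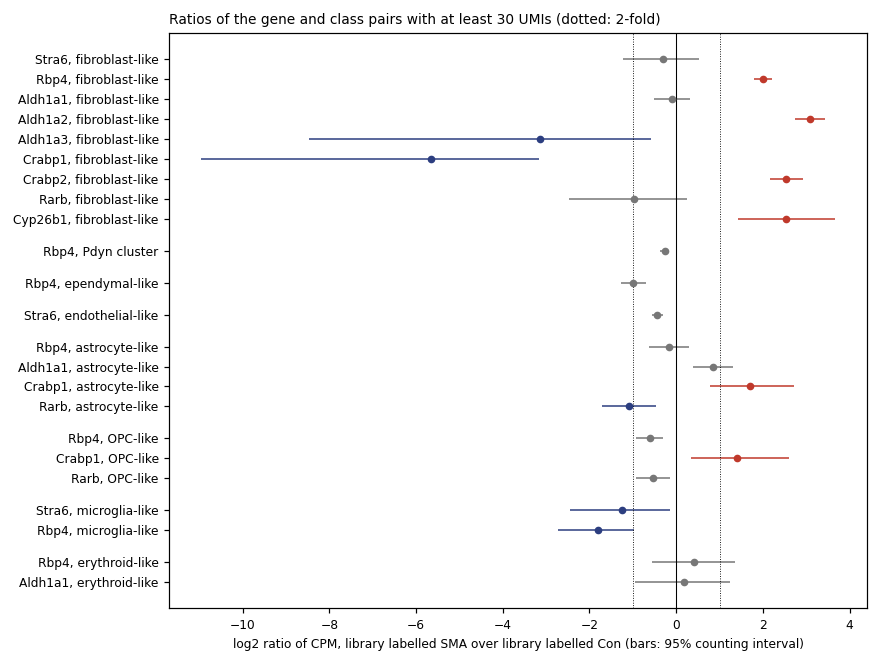
The log2 ratio of CPM, SMA over Con, for the 23 pairs compared, with 95% counting intervals, a solid line at 0 and dotted lines at 2-fold. Red points are at least 2-fold higher in SMA, blue points at least 2-fold lower and grey points under 2-fold. The widest spread is among fibroblast-like cells, from Aldh1a2 at 3.08 to Crabp1 at -5.65.

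Aldh1a2 (chr9:71215789-71296243, plus strand, GRCm38), the retinaldehyde dehydrogenase that makes most retinoic acid in the embryo, was at 344 CPM (201 UMIs, 298 to 395) in fibroblast-like cells of SMA and at 40.6 CPM (113 UMIs, 33.4 to 48.8) in those of Con. The log2 ratio was 3.08 (2.74 to 3.43), or 8.48-fold. These cells held 88.2% of all Aldh1a2 UMIs in SMA and 93.4% in Con. No UMI of it was found in 1080 microglia-like cells labelled SMA or in 899 labelled Con, which allows shares of cells with a UMI of up to 0.278% and 0.334% and sets no limit on cells that express it. At 1000 UMIs per cell it was found in 22.2% (12.7 to 34.5) of fibroblast-like cells in SMA and in 1.80% (0.864 to 3.28) of them in Con.

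Aldh1a1 (chr19:20492715-20643465, plus strand, GRCm38), a second enzyme of the family, was at 104 CPM (61 UMIs) in SMA and 111 CPM (310 UMIs) in Con in fibroblast-like cells, a log2 ratio of -0.09 (-0.51 to 0.31). This value moved with the cells taken, to 0.58 with each cell weighted equally and to -0.87 in the sub-clusters with SMA cells described below. It was also found in astrocyte-like cells, at 11.5 CPM (96 UMIs) in SMA and 6.40 CPM (68 UMIs) in Con, a log2 ratio of 0.84 (0.38 to 1.31) that stayed under 2-fold. In 3 of the 4 astrocyte-like clusters the levels were 10.3 in SMA against 5.59 CPM in Con, 14.4 against 8.41 CPM and 15.1 against 8.35 CPM. In the other cluster, the smallest, Aldh1a1 had 4 UMIs from 1 cell in SMA and none in Con. Aldh1a3 (chr7:66390890-66427517, minus strand, GRCm38), also an ALDH1A enzyme, had 1 UMI in SMA and 42 UMIs in Con in fibroblast-like cells (1.71 and 15.1 CPM, log2 ratio -3.14, -8.48 to -0.58).

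The binding proteins parted. Crabp2 (chr3:87948666-87953376, plus strand, GRCm38), which hands retinoic acid to nuclear receptors, was at 228 CPM (133 UMIs, 191 to 270) in fibroblast-like cells of SMA and 39.1 CPM (109 UMIs, 32.1 to 47.2) in those of Con. The log2 ratio was 2.54 (2.16 to 2.92). Crabp1 (chr9:54764748-54773110, plus strand, GRCm38), the other cytoplasmic binding protein, went the other way, with 1 UMI (1.71 CPM) in SMA and 239 UMIs (85.8 CPM, 75.3 to 97.4) in Con. Its log2 ratio was -5.65, with an interval from -10.96 to -3.16 because a single SMA UMI stands behind it.

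Cyp26b1 (chr6:84571414-84593908, minus strand, GRCm38), which hydroxylates retinoic acid for removal, was scarce, with 31 UMIs in SMA and 26 in Con over all kept cells. In fibroblast-like cells it had 17 UMIs (29.1 CPM) in SMA and 14 UMIs (5.03 CPM) in Con, a log2 ratio of 2.53 (1.43 to 3.66), but the 17 SMA UMIs came from 4 cells. Rbp4 in the same class was at 626 CPM (366 UMIs) in SMA and 157 CPM (436 UMIs) in Con, a log2 ratio of 2.0 (1.80 to 2.20). A single SMA cell held 54 of the 366 UMIs and the 5 highest held 53.3%. Rarb, the receptor, had 6 UMIs (10.3 CPM) in SMA and 56 UMIs (20.1 CPM) in Con, a log2 ratio of -0.97 (-2.48 to 0.24).

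The fibroblast-like cells of the libraries were not the same mixture. One of the 2 clusters, led by Mfap5, Timp1 and Serpinb2, held 2 SMA and 431 Con cells, and the other, led by Mfap4, Slc6a13 and A2m, held 61 SMA and 168 Con cells. When the class was divided again, 8 sub-clusters were found. Sub-clusters 1, 3, 4 and 5 held no SMA cell and 430 Con cells in all. Their median mitochondrial share was 1.24% to 2.51%, against 5.70% to 8.32% in the others. Of those 430 Con cells 4 had a barcode also listed for SMA, whereas 157 of the 169 Con cells in the other sub-clusters did. Depth differed as well, with sub-cluster medians of 1774 to 4471 UMIs against 8024 to 8980 UMIs in the others (cells of both libraries). The part of depth in the sharing of barcodes was not tested. A difference in level within fibroblasts and a difference in which fibroblasts were captured cannot be told apart for the class as a whole.

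**Figure D4:**
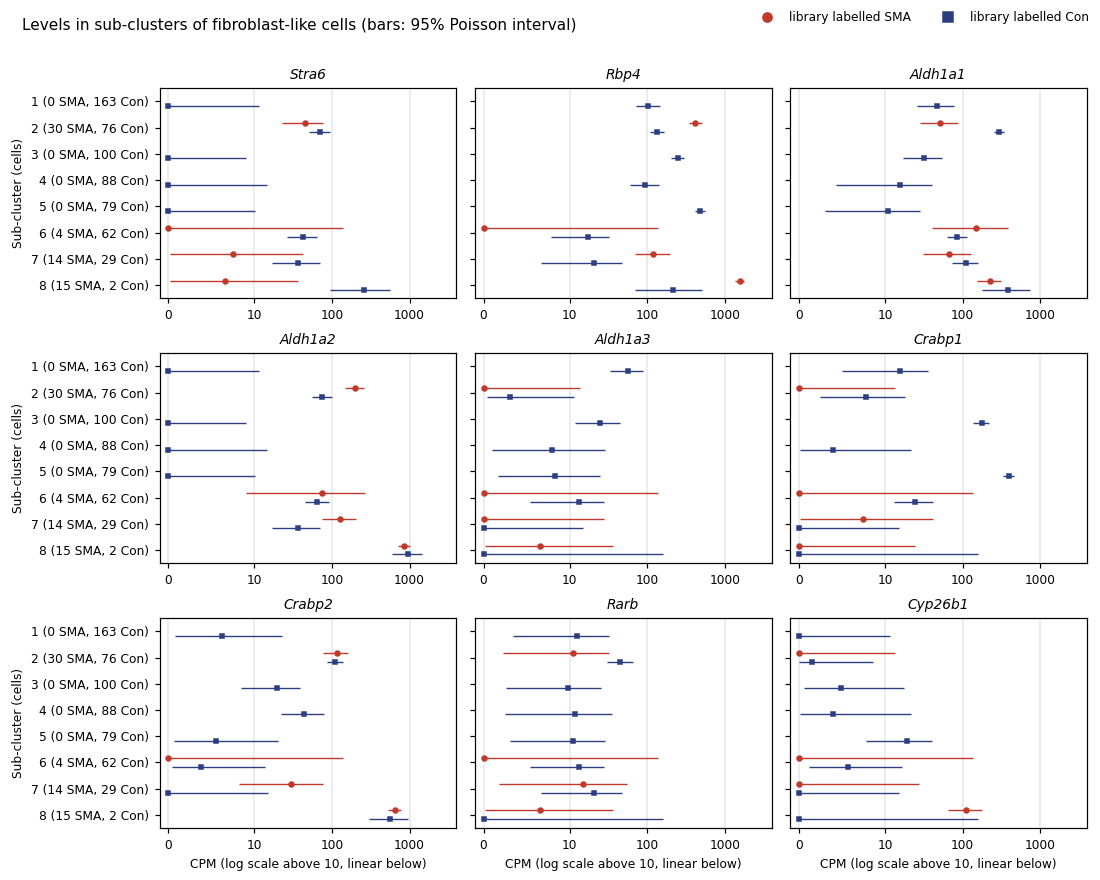
Level of each gene (horizontal axis, CPM, logarithmic above 10 and linear below) in 8 sub-clusters of fibroblast-like cells, in the library labelled SMA (circles) and Con (squares), with 95% Poisson intervals and the number of cells of each library on the vertical axis. Aldh1a2 and Crabp2 peak in sub-cluster 8, which holds 15 SMA and 2 Con cells, whereas Crabp1 peaks in sub-cluster 5, which holds Con cells only.

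Sub-cluster 8 was led by Ptgds, Slc22a8 and Slc22a6, and of the 4 arachnoid markers Slc6a13 and Wnt6 were at their highest there, Slc6a13 at 1558 CPM in SMA and 1470 CPM in Con and Wnt6 at 782 and 432 CPM. Slc6a13 was nearly as high in sub-cluster 2, at 1476 and 1046 CPM. The other two did not single it out. Ogn was at 335 and 43.2 CPM there against 656 CPM in sub-cluster 1, and Angptl2 at 138 CPM in SMA and with no UMI in Con, against 134 CPM in sub-cluster 4. The 3 dural and 3 pial markers gave no clear name to sub-cluster 8 either. Of the dural markers Mgp was at 947 and 86.5 CPM there, against 2951 CPM in sub-cluster 4, Fxyd5 was at 191 CPM in SMA with no UMI in Con, and Dkk2 had no UMI in either. Of the pial markers S100a6 was at 927 and 4194 CPM and Lama2 at 46.0 and 86.5 CPM, and Ngfr had no UMI in either. It held 15 of the 63 SMA cells but only 2 of the 599 Con cells. Aldh1a2 was at 848 CPM (129 UMIs) in its SMA cells and at 951 CPM (22 UMIs) in its 2 Con cells, 1 of which held 17 of the 22. Crabp2 was at 644 CPM (98 UMIs, in 15 of 15 cells) and 562 CPM (13 UMIs, in 2 of 2 cells). The counting intervals of the libraries overlap for both genes, but with 2 Con cells they do not cover the spread between cells. Sub-cluster 8 gave 64.2% of the Aldh1a2 UMIs and 73.7% of the Crabp2 UMIs of the SMA fibroblast-like cells. Rbp4 was at 1558 CPM (237 UMIs, 1366 to 1769) in the SMA cells and 216 CPM (5 UMIs, 70.2 to 505) in the Con cells, and all 17 Cyp26b1 UMIs of the SMA fibroblast-like cells lay there.

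Sub-cluster 2, led by Wif1, Notum, Dlk1 and Crym, was the only one with at least 30 cells in each library, at 30 SMA and 76 Con cells. Aldh1a2 was at 195 CPM (53 UMIs, 146 to 255) there in SMA and 74.4 CPM (48 UMIs, 54.8 to 98.6) in Con, and Rbp4 was at 416 CPM (113 UMIs) and 135 CPM (87 UMIs). A single SMA cell held 34 of those 113 Rbp4 UMIs. Crabp2 was at 114 CPM (31 UMIs, 77.5 to 162) in SMA and 110 CPM (71 UMIs, 85.9 to 139) in Con. Aldh1a1 was lower in SMA within this sub-cluster, at 51.5 CPM (14 UMIs, 28.2 to 86.5) against 299 CPM (193 UMIs, 258 to 344). Rarb was at 11.0 CPM (3 UMIs, 2.28 to 32.3) in SMA and 44.9 CPM (29 UMIs, 30.1 to 64.5) in Con, intervals that barely overlap. Stra6 was at 44.2 CPM (12 UMIs, 22.8 to 77.2) and 69.7 CPM (45 UMIs, 50.8 to 93.3). No ratio interval was taken for this sub-cluster, and overlap of such intervals does not show equal levels. Sub-cluster 7, led by genes that include the OPC genes Lhfpl3 and Olig2, held Aldh1a2 at 127 CPM (17 UMIs, 8 of them in 1 cell) in 14 SMA cells and 36.7 CPM (9 UMIs) in 29 Con cells.

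The Con-only sub-clusters held UMIs of 7 of the 9 members. No UMI of Aldh1a2 or Stra6 was found in their 430 cells, although both genes were found in Con cells of all the others. Aldh1a1 ran from 11.1 CPM (4 UMIs) to 46.7 CPM (15 UMIs) across them, Crabp2 from 5.55 to 43.4 CPM and Rarb from 9.77 to 12.4 CPM. Crabp1 was at 397 CPM (143 UMIs, in 30 of 79 cells) in sub-cluster 5, led by Krt19, Inhba and Nos2, and at 176 CPM (72 UMIs) in sub-cluster 3, led by cell-cycle and chemokine genes such as Plk1 and Cxcl10. These sub-clusters gave 59.8% and 30.1% of the Crabp1 UMIs of fibroblast-like cells in Con. A single cell held 27 of the 72 in sub-cluster 3. Outside the Con-only sub-clusters Crabp1 had 13 UMIs and Aldh1a3 had 7 in Con cells of sub-cluster 6, but single cells held 10 of the 13 and 6 of the 7. Rbp4 was also found in the Con-only sub-clusters, at 477 CPM in sub-cluster 5 and 247 CPM in sub-cluster 3. Aldh1a3 was highest in sub-cluster 1, led by Zbtb16 and Cyp4b1, at 56.0 CPM (18 UMIs). In Con fibroblast-like cells with a UMI of Crabp1, 72.1% also had one of Rbp4, against 25.8% of those without Crabp1, while the median depths were 5314 and 3319 UMIs. Of Con fibroblast-like cells with a UMI of Stra6, 40.8% had one of Aldh1a2, against 6.91% of the 550 without it, at median depths of 8764 and 3242 UMIs. Those 550 include the 430 cells of the Con-only sub-clusters, which had no UMI of either gene. Both contrasts pool all sub-clusters and do not show joint detection within any sub-cluster.

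Restricting both libraries to the sub-clusters that held SMA cells changed the account of several members. The mixtures still differed there, since sub-cluster 8 held 15 of the 63 SMA and 2 of the 169 Con cells. Aldh1a2 had a log2 ratio of 2.13 (1.79 to 2.48), Crabp2 one of 1.93 (1.53 to 2.34) and Rbp4 one of 3.09 (2.77 to 3.42). The Crabp2 value was not matched within sub-clusters 2 and 8, which held most of its UMIs in SMA, where the counting intervals of the libraries overlap as given above. Stra6 and Rarb passed 2-fold in the other direction, Stra6 at 24.0 CPM in SMA and 56.9 CPM in Con (log2 ratio -1.25, -2.18 to -0.42). Aldh1a1 was at 104 and 190 CPM (log2 ratio -0.87, -1.29 to -0.46), and Rarb at 10.3 and 28.5 CPM (log2 ratio -1.47, -3.00 to -0.23). Aldh1a3, Crabp1 and Cyp26b1 no longer reached the UMIs required. Crabp1 had 1 UMI in SMA (1.71 CPM) and 18 UMIs in Con (12.5 CPM) there, a log2 ratio of -2.87 (-8.25 to -0.21) against -5.65 in the whole class. Aldh1a3 had 1 and 9 UMIs (log2 ratio -1.87, -7.32 to 0.98), and Cyp26b1 17 and 4 UMIs (3.39, 1.77 to 5.42). In that restricted set 6.99% of 6321 genes were at least 2-fold lower in SMA and 3.94% at least 2-fold higher. With the SMA barcodes shared with Con kept, the class held 217 SMA cells, and the log2 ratio was 2.71 for Aldh1a2, 2.23 for Crabp2, 1.54 for Rbp4, 2.01 for Cyp26b1, -5.17 for Crabp1 and -1.34 for Aldh1a3.

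Rarb (chr14:16430839-16819156, minus strand, GRCm38) had more of its UMIs in OPC-like and astrocyte-like cells than in fibroblast-like cells in both libraries. OPC-like cells held 52.7% of its UMIs in SMA and 36.5% in Con, at 8.51 CPM (96 UMIs) and 12.3 CPM (123 UMIs). The log2 ratio was -0.54 (-0.94 to -0.14), under 2-fold. In astrocyte-like cells Rarb was at 3.70 CPM (31 UMIs) in SMA and 7.81 CPM (83 UMIs) in Con, a log2 ratio of -1.08 (-1.72 to -0.47). In this class 1.08% of genes were at least 2-fold lower in SMA. The widest gap was in a cluster led by Cidea and Gfap, at 2.06 CPM (3 UMIs) against 11.0 CPM (30 UMIs), while the largest astrocyte-like cluster had 4.20 and 6.60 CPM. With the shared barcodes kept the ratio was -0.89, under 2-fold. At 1000 UMIs per cell the share of cells with a UMI of Rarb was not above both background classes in both libraries in any class, so the glial levels rest on summed counts near the background of single cells.

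Crabp1 was higher in SMA in both large glial classes, on few UMIs. It had 30 UMIs (2.66 CPM) in SMA and 10 UMIs (1.00 CPM) in Con in OPC-like cells (log2 ratio 1.41, 0.33 to 2.60) and 36 UMIs (4.30 CPM) and 14 UMIs (1.32 CPM) in astrocyte-like cells (log2 ratio 1.71, 0.78 to 2.71). The 36 SMA UMIs lay in 21 of 1290 astrocyte-like cells, with 10 in 1 cell, and the 14 Con UMIs in 14 of 1576 cells, so the shares of cells with a UMI were 1.63% and 0.888%, with counting intervals that overlap. The astrocyte-like ratio was 1.09 with the shared barcodes kept, 1.05 at a mitochondrial limit of 20% and 0.95, under 2-fold, with no upper limit on genes. In OPC-like cells 0.759% of genes were at least 2-fold higher in SMA, and in astrocyte-like cells 0.982%. Crabp1 was at like levels in cells not expected to make it, at 2.14 and 1.05 CPM in microglia-like cells and at 2.18 and 0.963 CPM in erythroid-like cells, in SMA and Con in turn. The level in those classes was also higher in SMA, and the part of free RNA in the glial difference was not tested.

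Neuron-like cells were too few to be compared, with 44 in SMA and 26 in Con. Crabp1 had 29 UMIs in 9 of the SMA cells (73.8 CPM, 49.4 to 106) and 4 UMIs in 4 of the Con cells (15.2 CPM, 4.13 to 38.8). These were 18.8% of all Crabp1 UMIs in SMA, and 9 of the 29 came from 1 cell. Rarb was at 33.1 CPM (13 UMIs) in SMA and 37.9 CPM (10 UMIs) in Con, the highest values of any class in either library, although the intervals overlap those of fibroblast-like cells. Aldh1a2, Stra6 and Crabp2 had no UMI in neuron-like cells of either library, which allows up to 7.63 CPM in SMA and 11.4 CPM in Con.

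The rest of the pathway was read from a list of 40 further genes of retinoid transport, oxidation, breakdown, nuclear receptors, co-regulators and retinoid-responsive genes, all 40 of which were in the files. Over the 13 classes 262 pairs had enough UMIs, of which 5 were at least 2-fold lower in SMA, 3 at least 2-fold higher and 254 under 2-fold, beside the 2.41% and 2.11% over all pairs. In fibroblast-like cells 25 were compared, 3 of them lower and 2 higher. Fabp5, a fatty-acid carrier that can also carry retinoic acid, was at 1535 CPM in SMA and 736 CPM in Con (log2 ratio 1.06). Rarres2, which encodes the retinoid-responsive adipokine chemerin and which the study had singled out on these samples, was at 549 and 1563 CPM (-1.51). Rara had 5 and 59 UMIs (-1.31) and Ppard 3 and 36 UMIs (-1.33), in SMA and Con. In the sub-clusters with SMA cells Fabp5 was no longer 2-fold higher, and Adh1 and Rara were at least 2-fold lower.

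The other 3 pairs past 2-fold lay in classes in which no member was past 2-fold, and are named because they complete the count. Adh1, an alcohol dehydrogenase, had 3 UMIs in SMA and 35 in Con in endothelial-like cells (log2 ratio -3.01), where 1.67% of genes were at least 2-fold lower. Rara had 1 and 29 UMIs in mural-like cells (-3.19), where 4.31% were at least 2-fold lower. Ttr, which encodes transthyretin, the partner of RBP4 in plasma and a product of the choroid plexus, had 3444 UMIs in 9 of 639 erythroid-like cells labelled SMA and none in 1460 labelled Con, at least 2596-fold higher against a floor of 3 counts over the class. In erythroid-like cells 4.00% of genes were at least 2-fold higher.

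Several genes of the list were highest where a member was highest, in both libraries. With Aldh1a1 and Aldh1a2 in fibroblast-like cells stood Rarres2, Adh1 at 68.5 and 81.1 CPM, and Cyp1b1, a cytochrome able to oxidize retinol and retinaldehyde, at 53.1 and 82.9 CPM. With Rbp4 in the Pdyn cluster stood the retinol dehydrogenases Rdh5, at 244 and 268 CPM, and Rdh10, at 46.1 and 55.8 CPM. With Stra6 in endothelial-like cells stood the nuclear receptor Ppard, at 52.9 and 47.1 CPM, and Tgm2, at 28.5 and 21.7 CPM. The other CYP26 genes were hardly found. Cyp26a1 had 10 UMIs in SMA and 11 in Con in the compared classes, and Cyp26c1 had none in either library.

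The genes with the most like pattern depended on the pseudocount. They were found by the Pearson correlation of log2(CPM + 10) over 26 values, 13 classes in each library, which share depth and dissociation within a library. For Stra6 they were Cdkn2b, Lsr and Hspa12b (r = 0.98, 0.98 and 0.97), and for Rbp4 they were Fgl2, Prelp and Rdh10 (0.94, 0.93 and 0.92). Ptgds, Gjb2 and Slc6a13 came first for both Aldh1a2 (0.96, 0.93 and 0.93) and Crabp2 (0.97, 0.94 and 0.93), and Igfbp6, Gjb2 and Creb3l1 for Aldh1a1 (0.95, 0.95 and 0.94). For Crabp1 they were Thy1, Saa3 and C3 (each 0.97), all 3 of which had no UMI in fibroblast-like cells labelled SMA. Rarb had the weakest likeness, to Antxr1, Chpf and Rasl11b (0.86, 0.84 and 0.81). With a pseudocount of 1 CPM only 7 of the 21 likenesses were found again, namely all 3 of Crabp1, Igfbp6 for Aldh1a1, Prelp for Rbp4, Ptgds for Crabp2 and Antxr1 for Rarb, and none for Stra6 or Aldh1a2.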

How the data were processed

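The authors deposited raw UMI counts per gene and barcode, made with Cell Ranger (4.0.0 per the file headers) from 10x Genomics 3′ libraries, 1 labelled SMA and 1 labelled Con, each of 3 pooled littermates. Per the submitters' notes the genome was mm10. Gene positions are those of GENCODE M21 (GRCm38), matched on the identifiers. Clusters and ratios were computed in Python 3.11.15 (numpy 2.4.6, scipy 1.17.1, igraph 0.11.9, scikit-learn 1.9.0).

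Following the limits of the study, barcodes with under 200 genes, over 4000 genes or 10% or more mitochondrial UMIs were left out, as was a cluster of 1340 Con barcodes with a ribosomal share over 30%. SMA barcodes also listed for Con were left out before clustering (2000 variable genes, 30 components, 20 neighbours, Louvain at resolution 1). No doublet caller was run, and the upper gene limit stood in for one. Classes were rebuilt from marker genes and need not match those of the study. Counts of a class were summed to CPM. Ratios have exact conditional binomial intervals, CPM exact Poisson intervals and shares Clopper-Pearson intervals. Pairs were compared with at least 50 cells in each library and 30 UMIs over both. The count of 0 was set to a floor of 3. UMI counts of different genes were not ranked against each other.

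Median depth of the kept cells was 6109 UMIs in SMA and 6232 UMIs in Con, so a gene with a few UMIs per class has wide intervals. Fibroblast-like cells differed more in depth, at 8577 UMIs in SMA and 3473 UMIs in Con. With only cells of at least 5000 UMIs taken, log2 ratios in that class were 2.63 for Aldh1a2, 2.22 for Crabp2 and 2.11 for Rbp4. Those of Crabp1, Aldh1a1, Stra6 and Rarb were -5.43, -0.57, -0.84 and -1.22. PCR duplicates were removed by the UMIs, but the intervals still cover counting error only. Intervals were also taken on counts simulated for each of the 13 classes compared (2926 to 12774 genes each). They held the true ratio for 95.7% to 96.7% of genes. Exact intervals reach such shares by construction under counting error alone, so these shares do not show how the intervals hold for the real counts. There the UMIs of some genes lay mostly in few cells, and neither group had a replicate. The genes named are the members, genes of the retinoid list past 2-fold where a member was or highest where a member was, and the 3 genes of most like pattern for each member with at least 100 UMIs (among genes with at least 500). Some genes of the retinoid list that meet this rule are not reported here. The members and lists were chosen with earlier results of these data known.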

Additional observations from a re-analysis of the deposited data

Results flagged for a closer look

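Rbp4 and Crabp1 had ratios past 2-fold of opposite sign in different classes. The log2 ratio of Rbp4 was 2.0 in fibroblast-like cells and -1.81 in microglia-like cells, where it turned to 0.20 with no upper limit on genes. The log2 ratio of Crabp1 was -5.65 in fibroblast-like cells, 1.41 in OPC-like cells and 1.71 in astrocyte-like cells, the last at 0.95 with no upper limit on genes. These differences between classes were not tested, since each group was 1 library.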

How the results depend on the processing

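The ratios of the 5 pairs that rest on at least 100 UMIs and were past 2-fold (Aldh1a2, Crabp2, Rbp4 and Crabp1 in fibroblast-like cells and Rarb in astrocyte-like cells) kept their direction under every alternative in which they reached the UMIs required. Their ranges were 2.13 to 3.72 for Aldh1a2, 1.76 to 3.02 for Crabp2, 1.54 to 3.12 for Rbp4, -5.94 to -4.84 for Crabp1 and -1.19 to -0.89 for Rarb. Below the UMIs required, Crabp1 was at -2.87 without the sub-clusters lacking SMA cells and at -2.84 without the Con-rich cluster. The log2 ratio of Rbp4 in microglia-like cells turned from -1.81 to 0.20 with no upper limit on genes. Under 2-fold, Aldh1a1 in fibroblast-like cells ran from -0.87 (sub-clusters without SMA cells left out) to 0.58 (each cell weighted equally), and Stra6 there from -1.25 to 0.62 under the same alternatives. The cause of these changes was not tested.

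Counts of gene and class pairs past 2-fold moved with the UMIs required. Against 5 lower and 6 higher member pairs and 5 lower and 3 higher pairs of the retinoid list, a minimum of 10 UMIs gave 8 and 13 member pairs and 12 and 15 list pairs, a minimum of 1 gave 12 and 17 and 13 and 22, and a minimum of 100 gave 2 and 3 member pairs and 1 lower list pair. At 1.5-fold 8 member pairs were lower, and 20 list pairs were lower and 17 higher. With the shared SMA barcodes kept, 3 member pairs were lower and 5 list pairs higher. Higher list pairs numbered 7 with each cell weighted equally, 8 at a mitochondrial limit of 20%, 7 with no upper limit on genes, 1 without the sub-clusters lacking SMA cells and 1 without the Con-rich fibroblast-like cluster, an alternative chosen after the data were seen. Without thinning, 15 pairs rather than 7 were above the background classes. Of the 9 members 1 was highest in the sub-cluster with most SMA cells, and 0 with the shared barcodes kept. No paired analysis was possible because each group was 1 library with no replicate number. Depth limits Aldh1a3, Cyp26b1 and all values under 30 UMIs most.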

Other observations

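Barcodes left out before the comparisons also held UMIs of the members. In the 6509 SMA barcodes that passed the limits but were also listed for Con, Stra6 was at 43.3 CPM (39.6 to 47.3), against 17.8 CPM in the kept SMA cells and 27.8 CPM in the kept Con cells. Rbp4 was at 35.7 CPM there, against 58.1 CPM in the kept SMA cells, and Crabp1 at 1.49 CPM, against 3.37 CPM. In barcodes with over 4000 genes Stra6 was at 47.9 CPM in 459 SMA barcodes and 87.5 CPM in 817 Con barcodes. In the 1340 Con barcodes of high ribosomal share Rbp4, Stra6, Aldh1a2, Crabp2 and Cyp26b1 had no UMI.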
